A study of Mus musculus with 1 sample.

Results

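Nuclear receptors are transcription factors, many of which are switched on by small lipid-soluble ligands such as steroids, retinoids, thyroid hormone, vitamin D, oxysterols and fatty acids. Here 44 genes of this family were examined in cultured mouse fibroblasts labelled as coming from normal pancreas. They are the rows of the deposited table named for nuclear receptors other than Rarb and Pparg, 1 row each, out of 23386 genes in all (20559 protein-coding).

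Steroid receptors are held by chaperones until hormone binds and then act mostly as homodimers. Receptors for retinoic acid, thyroid hormone, vitamin D, fatty acids and oxysterols bind DNA together with a retinoid X receptor (RXR) and can repress their targets through corepressors when no ligand is present. A further set, the orphan receptors, acts largely through the amount of protein made: the NR4A genes are immediate early genes, and the REV-ERB genes form a loop of the circadian clock. Stellate cells, a fibroblast type of the pancreas, store vitamin A when quiescent, and their retinoid and vitamin D receptors are well studied.

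The data are 1 RNA sequencing library of total RNA, from fibroblasts expanded in culture. The labelled background is mixed, from C57BL/6 and BALB/c, and the genotype is written as tf1acre-, KrasWT and Tgfrb2flox/flox. How many animals the culture came from is not stated. The series compares normal with cancer-associated fibroblasts (CAF) of the pancreas, and a library labelled CAF was not analysed here. The name of the value column contains CAF, against the label, and which of them holds was not settled. The sample is therefore called the library labelled normal fibroblast, and no statement below depends on its being normal.

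From the deposited values 52494688 reads were recovered, and 1 read is 0.0190 CPM (reads per 1000000 reads in the table). With no replicate, intervals (95%) cover counting error and not the variation between cultures, and reads are not independent molecules. All 8 fibroblast markers examined lay above the median of the coding genes with at least 10 reads, from Pdgfra at 36.5 to Vim at 603 CPM per kb of exonic length. Of the other cell types, all 5 mesothelial markers also did so (15.7 to 102 CPM per kb), as did 4 of 7 acinar, 1 of 6 ductal, 1 of 3 endothelial, 1 of 5 macrophage, 0 of 4 endocrine and 0 of 4 hepatocyte markers. In such a bulk library, a few cells with much of an RNA and many cells with little of it cannot be told apart.

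The library held a broad but uneven set of nuclear receptors, led by the glucocorticoid receptor gene Nr3c1, the immediate early receptor gene Nr4a1, the COUP-TFII gene Nr2f2 and the RXR alpha gene Rxra. Of the 44 genes, 35 (79.5%) had at least 10 reads, against 67.6% of all protein-coding genes. This excess depended on the low cut: 24 had at least 50 reads. Under 1 CPM lay 45.5% of the 44, against 42.6% of coding genes. On the scale used to compare genes, CPM per kb of exonic length, 16 of 44 (36.4%) lay above the median of the detected coding genes, 4.94, against 34.0% of all coding genes. That share is near the background. Over all 44 the median level was 0.431 CPM per kb, against 1.22 over all coding genes, and over the 35 with at least 10 reads it was 1.64, against 4.94. The 44 genes took 0.141% of the reads, and Nr3c1 alone took 25.6% of their reads. The first 3 in the order of length-divided level, Nr3c1, Nr4a1 and Nr2f2, made up 44% of the summed level, and the first 12 made up 85.9%.

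**Figure D1:**
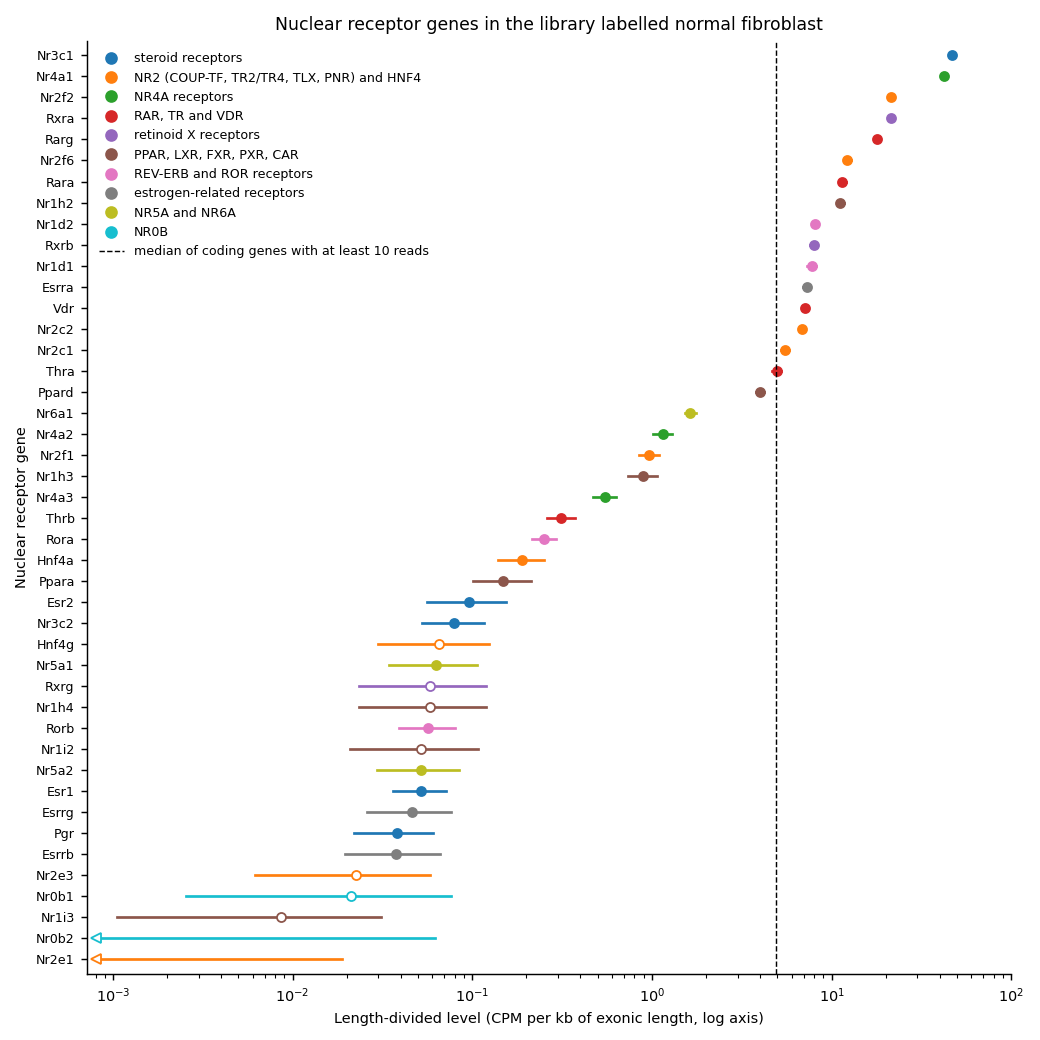
Length-divided level (CPM per kb of exonic length, log axis) of each of the 44 nuclear receptor genes in the 1 library, in descending order; points are values, bars are 95% Poisson intervals, colours are receptor classes, open points have under 10 reads, triangles have 0 reads and the dashed line is the median of detected coding genes (4.94). The values run from 47.0 for Nr3c1 down to 2 genes with no read, and 16 genes lie on the right of the line, with Thra (4.95) almost on it.

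Adjacent genes in this order were often not separated by counting error. The intervals overlapped in 32 of the 43 pairs of neighbours, and in 6 of the 11 pairs among the first 12. Nr3c1 and Nr4a1 were separated, at 47.0 (46.3 to 47.7) and 42.2 (41.2 to 43.1) CPM per kb, though Nr4a1 came first when the longest transcript or the listed RefSeq transcripts gave the length. Nr2f2 (21.5) and Rxra (21.4) were not separated. Likewise the interval of Rara (11.5) overlapped those of Nr2f6 (12.2) and Nr1h2 (11.2).

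**Figure D2:**
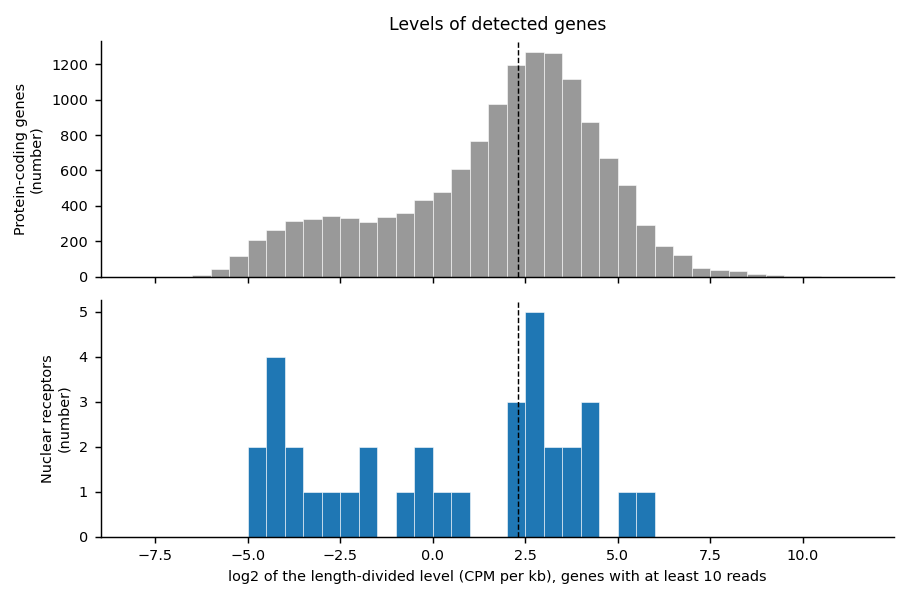
Number of genes per bin of length-divided level (log2 of CPM per kb) among genes with at least 10 reads, for all protein-coding genes (top) and for the nuclear receptors (bottom); the dashed line is the median of the coding genes. Receptors occur on both sides of the line, and none falls between Nr6a1 at 1.64 and Ppard at 4.0 CPM per kb.

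Among the 5 steroid receptor genes, the glucocorticoid receptor gene stood far above the rest. Nr3c1 (RefSeq span on GRCm38 chromosome 18, 39410545 to 39519421) had 18953 reads, or 361 CPM, and its length-divided level was higher than that of 94.9% of detected coding genes. Nr3c2, which encodes the mineralocorticoid receptor, a close relative that also binds glucocorticoids, had 27 reads and 0.0794 CPM per kb (0.0524 to 0.116). The ratio of their length-divided levels was 591 (counting interval 406 to 898). The estrogen and progesterone receptor genes had few reads: Esr1 had 37 reads and 0.0516 CPM per kb (0.0363 to 0.0711), Esr2 17 reads and 0.0962 (0.0560 to 0.154), and Pgr 17 reads and 0.0379. Nr3c1 made up 99.4% of the summed level of the class. Esr2 was nominally above Esr1, by a ratio of 1.86, but the interval of 0.984 to 3.39 includes equality and the order turned with each other gene length (0.866, 0.597) and without length (0.459).

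Genes for the chaperones that steroid receptors depend on were high. All 9 examined were detected (at least 10 reads), and 8 exceeded the median of detected coding genes, with a list median of 29.8 CPM per kb. Over all coding genes, 67.6% had at least 10 reads and 34.0% exceeded that median, the background for each list below. The cytosolic HSP90 gene Hsp90ab1 had 574 CPM per kb, Stip1, which passes clients from HSP70 to HSP90, had 218, and the constitutive HSP70 gene Hspa8 had 114. Fkbp5, a cochaperone that is also a textbook glucocorticoid target, was the exception at 4.77 and is named after its value was seen. Among 9 textbook targets of the glucocorticoid receptor, which other signals also regulate, all were detected and 5 exceeded that median, led by the phosphatase gene Dusp1 (48.9 CPM per kb), the transcription factor gene Klf9 (46.9) and Errfi1 (27.3), which encodes an inhibitor of EGF receptor signalling. Levels in 1 library do not show whether the receptor was active.

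The estrogen-related receptors are orphan receptors that regulate genes of mitochondrial energy metabolism. Esrra (chromosome 19, 6910977 to 6922048) had 1671 reads and 7.26 CPM per kb (6.91 to 7.61), whereas Esrrb had 12 reads and 0.0378 (0.0195 to 0.0660), and Esrrg 15 reads and 0.0460 (0.0258 to 0.0759). The length-divided level of Esrra was 192 times that of Esrrb (109.6 to 372) and 158 times that of Esrrg (95.3 to 282), the latter rising to 240.5 with the longest transcript and 276 with the listed RefSeq transcripts. Of their coactivator genes, Ppargc1a had 29 reads and 0.0838 CPM per kb, and Ppargc1b 281 reads and 1.34, both below the median of detected coding genes. Both were named after their values were seen, and the related Pprc1 lay above that median, at 36.6 CPM per kb.

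Of the 3 RXR genes, the shared partners of many receptors, Rxra and Rxrb were expressed and Rxrg had 7 reads. Rxra (chromosome 2, 27676445 to 27763319) had 6136 reads and 21.4 CPM per kb (20.9 to 21.9), and Rxrb (chromosome 17, 34031812 to 34038403) had 1658 reads and 7.95 (7.57 to 8.34). The ratio of 2.69 (2.55 to 2.84) lay beyond 2-fold with exons merged over transcripts, but was 1.98 with the longest transcript as the length. Summed over the class, RXR genes had 29.4 CPM per kb, against 41.9 for the 5 receptors of retinoic acid, thyroid hormone and vitamin D and 16.3 for the 7 receptors of lipids, bile acids and xenobiotics.

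Both retinoic acid receptor genes examined were well represented. Rarg (chromosome 15, 102234938 to 102257522) had 4012 reads and 17.9 CPM per kb (17.4 to 18.5), and Rara (chromosome 11, 98927800 to 98974942) had 2644 reads and 11.5 (11.1 to 12). The ratio of 1.55 (1.48 to 1.63) excludes equality within counting error but stays under 2-fold. Of 6 textbook targets, 5 were detected and 2 exceeded the median of detected coding genes, beside 67.6% and 34.0% of all coding genes. The transglutaminase gene Tgm2 had 97.2 CPM per kb and the retinal reductase gene Dhrs3 8.63. Next per length came the retinoic acid carrier gene Crabp2, with 28 reads and 0.403 CPM per kb. Of the 2 retinoic acid hydroxylase genes on the list, Cyp26a1 had 5 reads and Cyp26b1, named after its value was seen, had 56 reads and 0.199 CPM per kb.

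The vitamin D receptor gene Vdr (chromosome 15, 97854427 to 97908296) had 2110 reads and 7.11 CPM per kb (6.81 to 7.42), above 59.6% of detected coding genes. Its textbook target Cyp24a1, which encodes the enzyme that inactivates the hormone, had 1 read. The other targets examined, the calcium channel genes Trpv6 and Trpv5 and the calcium-binding protein gene S100g, had 4, 2 and 12 reads. Thus 3 of the 4 listed targets had under 10 reads, whereas 67.6% of all coding genes had at least 10. The list is short, and levels in 1 library do not show whether this receptor was active.

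Of the thyroid hormone receptors, Thra had 1200 reads and 4.95 CPM per kb (4.68 to 5.24), and Thrb 122 reads and 0.314 (0.261 to 0.375), a ratio of 15.8 (13.1 to 19.2). That ratio was 24.9 with the longest transcript, 29.5 with the listed RefSeq transcripts and 9.84 without length, with Thra the higher in each. Thra (chromosome 11, 98740776 to 98769006) and Nr1d1 (chromosome 11, 98767932 to 98775377) lie on opposite strands and share 263 exonic bases, 5.7% of the Thra exons and 8.5% of those of Nr1d1. Without knowing whether the counting used strand, reads of that stretch cannot be assigned. Among the 4 targets of the receptors, Klf9, shared with the glucocorticoid list, and the corepressor gene Hr (5.15 CPM per kb) exceeded the median, Dio3 had 28 reads and Thrsp had 0.

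Among the 7 receptors of lipids, bile acids and xenobiotics, 4 were detected and 1 exceeded the median of detected coding genes. Nr1h2, the LXR beta gene (chromosome 7, 44549616 to 44553968), had 1967 reads and 11.2 CPM per kb (10.7 to 11.7), and Ppard (chromosome 17, 28232754 to 28301469) had 1578 reads and 4.0 (3.81 to 4.20). Their relatives were much lower: Nr1h3, the LXR alpha gene, had 118 reads and 0.894 CPM per kb (0.740 to 1.07), and Ppara had 30 reads and 0.149 (0.101 to 0.213). Per length, Nr1h2 stood 12.5 times above Nr1h3 (10.4 to 15.2) and Ppard 26.9 times above Ppara (18.7 to 39.9). The latter ratio was 48.2 with the longest transcript, 56.1 with the listed RefSeq transcripts and 52.6 without length. The bile acid receptor gene Nr1h4 and the pregnane X receptor gene Nr1i2 had 7 reads each. Nr1i3, which encodes the constitutive androstane receptor, had 2 reads, and 74.9% of its exonic bases overlap those of Tomm40l on the opposite strand, a gene with 1153 reads.

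All 8 textbook LXR targets were detected and 5 exceeded the median, led by the phospholipid transfer protein gene Pltp (45.7 CPM per kb), the cholesterol exporter gene Abca1 (33.4) and Srebf1 (18.2), which encodes an activator of fatty acid synthesis. All 8 PPAR targets were detected and 3 exceeded the median, a share near the 34.0% of all coding genes. Among the 3 were Cpt1a (28.7), which brings fatty acids into mitochondria, and the lipid droplet gene Plin2 (12.8). In contrast 7 of 8 targets of the hepatic receptors had fewer than 10 reads, whereas 67.6% of all coding genes had at least 10. The 7 ran from 1 read for Cyp3a11, Cyp2b10, Slc51b and Fgf15 to 9 for the bile salt exporter gene Abcb11, with 4 for Slc51a and 7 for Apoa1. The exception, Apob, had 56 reads over a very long transcript, 0.0766 CPM per kb.

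Both REV-ERB genes, which encode heme-binding repressors of the clock gene Arntl, had similar length-divided levels. Nr1d2 (chromosome 14, 18204056 to 18239106) had 2303 reads and 8.11 CPM per kb (7.78 to 8.45), Nr1d1 1254 reads and 7.76 (7.34 to 8.21), and the ratio of 1.04 had an interval of 0.975 to 1.12, which spans equality and lies below 2-fold; without length it was 1.84. The ROR genes, activators that bind the same DNA elements, were lower: Rora had 172 reads and 0.251 CPM per kb (0.215 to 0.291), and Rorb had 33 reads and 0.0568 (0.0391 to 0.0797), a ratio of 4.42 (3.03 to 6.62). All 15 clock genes examined were detected and 6 exceeded the median, beside 67.6% and 34.0% of all coding genes. The repressor genes Bhlhe40 (32.9) and Nfil3 (17.5) and then Clock (11.1) were the highest. A rhythm cannot be read from 1 library.

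The NR4A receptors are immediate early genes that need no known hormone and rise within minutes of growth factor, cyclic AMP or calcium signals. Nr4a1 (chromosome 15, 101253902 to 101274795) had 7770 reads, or 148 CPM and 42.2 CPM per kb, above 94.0% of detected coding genes. Nr4a2 had 245 reads and 1.15 CPM per kb (1.01 to 1.3), and Nr4a3 172 reads and 0.547 (0.469 to 0.635). Per length, Nr4a1 stood 36.7 times above Nr4a2 (32.3 to 41.8) and 77.1 times above Nr4a3 (66.3 to 90.2; 45.2 without length), and it held 96.1% of the summed level of the class.

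Cyclic AMP acts on such genes through the factor CREB, so the promoters of the NR4A genes were read for its element. The half-site of the cyclic AMP response element, TGACG, was searched on both strands in the 250 bases before each RefSeq transcription start (GRCm38.p6), and its copies are in capitals, as CGTCA where they lie on the other strand. The windows of Nr4a1 at chr15:101266596-101266845 (+) and Nr4a2 at chr2:57124004-57124253 (-) read, 5′ to 3′ on the strand of the gene:
Nr4a1: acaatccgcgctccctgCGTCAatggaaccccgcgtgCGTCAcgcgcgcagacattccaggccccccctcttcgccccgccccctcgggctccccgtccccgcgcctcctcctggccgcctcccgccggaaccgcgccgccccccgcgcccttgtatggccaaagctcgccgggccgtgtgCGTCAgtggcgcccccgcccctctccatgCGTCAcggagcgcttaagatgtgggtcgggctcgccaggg
Nr4a2: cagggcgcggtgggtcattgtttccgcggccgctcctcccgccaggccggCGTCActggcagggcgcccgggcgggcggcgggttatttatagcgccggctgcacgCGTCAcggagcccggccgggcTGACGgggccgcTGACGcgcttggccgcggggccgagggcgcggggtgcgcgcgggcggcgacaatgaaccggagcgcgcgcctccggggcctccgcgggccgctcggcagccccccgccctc

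Both windows held 4 copies of TGACG, and so did that of Nr4a3 at chr4:48045055-48045304 (+), which is not printed because 152 of its 250 bases lie in a first exon of Nr4a3 in GENCODE. At least 1 copy occurred in 17.8% of the 32851 RefSeq windows of this length and at least 4 copies in 0.137% of them, a number of copies set after the NR4A windows had been read. None of the 56 windows of the other receptor genes held 4. The full palindrome TGACGTCA, which contains the half-site, occurred in none of the 3 and in 1.55% of all windows. A match is one of letters only, and genes with equal counts of the half-site differed in level by 36.7 and 77.1 times.

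COUP-TF genes encode orphan receptors of mesenchyme, and Nr2f2 is a marker of mesenchymal and venous identity. Nr2f2 (chromosome 7, 70351946 to 70366746) had 9734 reads and 21.5 CPM per kb (21.1 to 21.9), above 85.2% of detected coding genes. Nr2f1 (chromosome 13, 78188971 to 78198873) had 258 reads and 0.965 (0.851 to 1.09), so that Nr2f2 stood 22.3 times above it (19.7 to 25.3; 37.7 without length). Nr2f6 (chromosome 8, 71374118 to 71381967) had 1911 reads and 12.2 CPM per kb (11.7 to 12.8). The ratio of Nr2f2 to Nr2f6, 1.76 (1.68 to 1.85), stayed under 2-fold with merged exons only. It was 2.68 with the longest transcript, 2.32 with the exons of the listed RefSeq transcripts and 5.09 without length. The merged exons of Nr2f2 span 8625 bases, against 4222 for its longest transcript.

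Of the 17 pairs, Nr2f1 and Nr2f2 shared the longest identical stretch, which matters because short reads from it fit both genes. The longest identical run of their coding sequences had 59 bases, at coding positions 220 to 278 of Nr2f2 and 232 to 290 of Nr2f1, counted from the first base of the start codon. In the other 16 pairs the longest identical run had 14 to 29 bases. The run is printed from the GENCODE M21 transcripts, with the corresponding longest run of Rxra and Rxrb (29 bases) for comparison, and no letter is in capitals because every base is shared:
Nr2f2 and Nr2f1: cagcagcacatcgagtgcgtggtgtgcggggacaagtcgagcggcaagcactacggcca
Rxra and Rxrb: ctggagcacctgttcttcttcaagctcat

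Only 10 of the 5090 distinct stretches of 50 bases in Nr2f1 transcripts also occurred in Nr2f2. Overlap with genes on the opposite strand was larger. Of all 50-base stretches, 43.4% of those of Nr2f6 also occurred, on the other strand, in Ocel1 (102 reads) and 30.0% of those of Nr2c2 in other genes, nearly all in Mrps25 (961 reads). For 7.4% of those of Nr2f2 the partner was mostly the non-coding B130024G19Rik (82 reads). The levels of Nr2f6, Nr2c2, Nr2f2 and Nr1i3 are therefore uncertain. By how much was not measured, because the strand setting of the counting is not known.

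The testicular receptor genes Nr2c1 and Nr2c2, widely expressed repressors, had 1334 and 5391 reads. With merged exons as the length they had 5.52 (5.22 to 5.82) and 6.88 (6.69 to 7.06) CPM per kb, a ratio of 1.25 (1.17 to 1.32). The ratio depended on the length: it was 1.97 with the longest transcript and with the listed RefSeq transcripts, and 4.04 without division by length. Nuclear receptors of retina and forebrain were at or near the floor: Nr2e3 had 4 reads and Nr2e1 had 0, a count that allows up to 0.0703 CPM, the upper end of its interval. The HNF4 genes, which encode receptors of liver, gut and islet epithelium, had 48 reads (Hnf4a, 0.189 CPM per kb) and 9 reads (Hnf4g).

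Among the NR5A and NR6A receptors, Nr6a1, which encodes the germ cell nuclear factor, had 930 reads and 1.64 CPM per kb (1.53 to 1.75). The steroidogenic factor gene Nr5a1 had 14 reads and 0.0629 CPM per kb (0.0344 to 0.106), and Nr5a2, the LRH-1 gene of acinar cells and liver, had 16 reads and 0.0517 (0.0295 to 0.0839), a ratio per length of 1.22 with an interval of 0.550 to 2.66, and of 0.875 without length. The acinar enzyme genes Cpa1, Cel, Pnlip and Ctrb1 had 13.4 to 58.5 CPM per kb in the same library, whereas Ptf1a, which encodes a factor of acinar identity, had 6 reads, Rbpjl 21 and Bhlha15 51. Their part in the Nr5a2 value was not tested. The NR0B genes encode receptors without a DNA-binding domain that repress other receptors, and they were at the floor: Nr0b1 had 2 reads and Nr0b2 had 0.

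Across the 17 pairs of paralogs compared, 11 were unequal by more than 2-fold with the whole interval beyond it, and 6 were not. In the first set 1 gene of each pair carried most of the level: Nr3c1, Esrra, Nr4a1, Ppard, Nr2f2, Thra, Nr1h2, Rora or Rxra. The second set comprised Nr1d1 with Nr1d2, Nr2c1 with Nr2c2, Rara with Rarg, Nr2f2 with Nr2f6, and the low pairs Esr1 with Esr2 and Nr5a1 with Nr5a2. Both sets are those of merged exons. With the other lengths and without length, Nr2f2 to Nr2f6 was above 2-fold, as was Nr2c2 to Nr2c1 without length (4.04). Rxra to Rxrb was 1.98 with the longest transcript. For Esr1 with Esr2 and Nr5a1 with Nr5a2 the intervals include both equality and 2-fold, so that depth limits the statement.

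**Figure D3:**
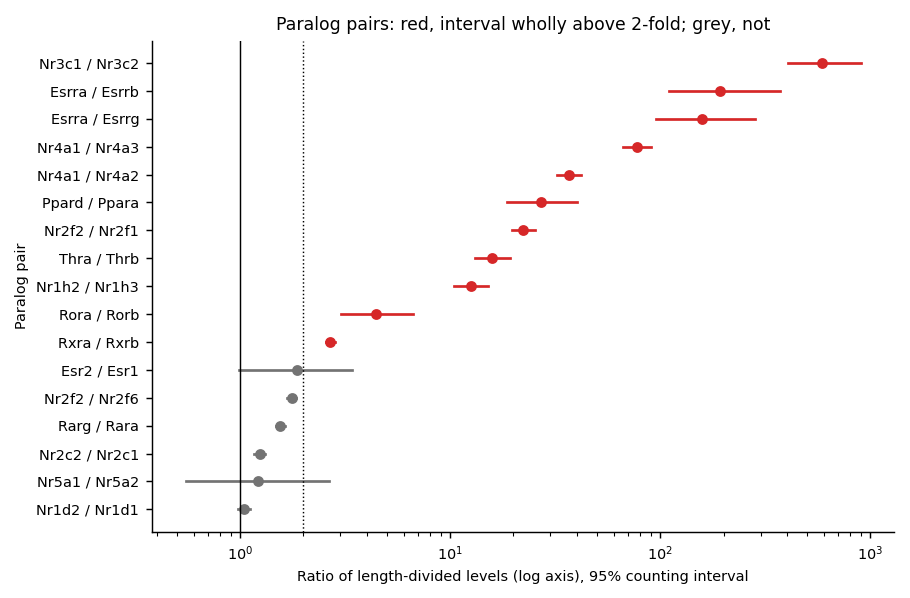
Ratio of the length-divided levels of the 17 paralog pairs (log axis), higher gene over lower; points are ratios, bars are 95% counting intervals, the solid line is equality and the dotted line 2-fold. With merged exons as the length, the interval lies above 2-fold in 11 pairs (red), up to 591 for Nr3c1 over Nr3c2, and in 6 (grey) it does not.

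Coregulator genes, whose proteins carry the effect of receptors to chromatin, were widely detected. All 8 corepressor genes were detected and 5 exceeded the median, with Ncor1, the scaffold that docks on unliganded receptors, at 23.5 CPM per kb, Tbl1x at 20.2 and the deacetylase gene Hdac3 at 16.7. All 15 coactivator genes were detected and 10 exceeded the median, led by the methyltransferase gene Prmt1 (44), Pprc1 (36.6) and the Mediator subunit gene Med1 (23.7).

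RNA of the genes that make, move or remove the ligands was lower. Of 18 such genes, 10 were detected, and 1 exceeded the median: H6pd, at 14.1 CPM per kb, whose enzyme supplies the cofactor for glucocorticoid regeneration. The oxysterol enzyme gene Ch25h had 2.60 and the steroid reductase gene Srd5a1 2.08. Those with fewer than 10 reads were Hsd11b2 (5), Dio1 (2), Cyp24a1 (1), Cyp7b1 (4), the aromatase gene Cyp19a1 (3), Hsd17b1 (9), Hsd17b2 (1) and Sult1e1 (1). Over the 107 distinct genes of the 12 lists, 82.2% were detected and 42.1% exceeded the median, against 67.6% and 34.0% of all coding genes.

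**Figure D4:**
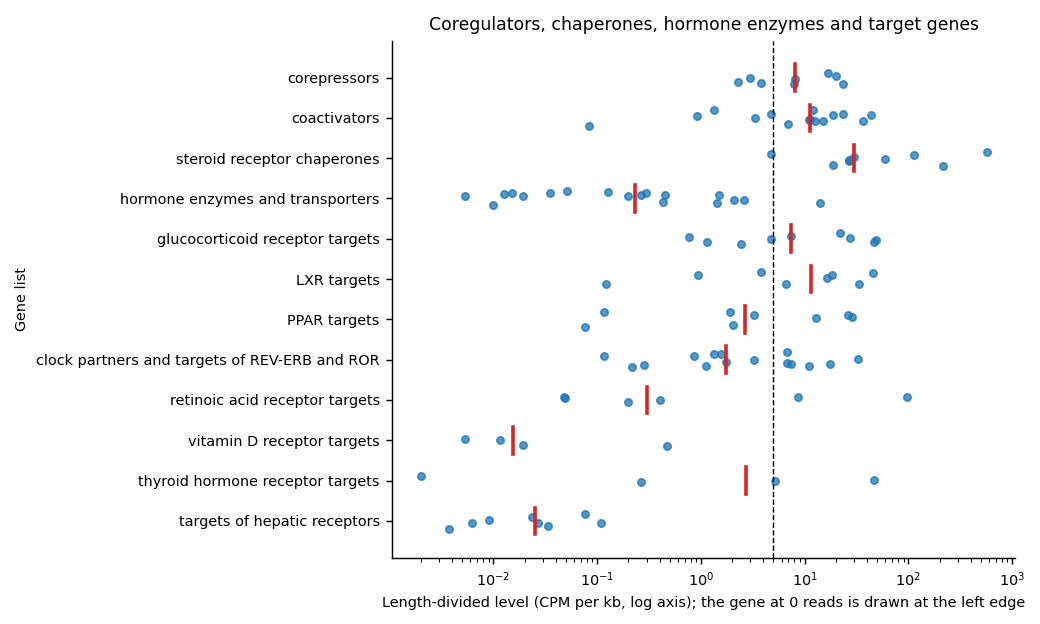
Length-divided level (CPM per kb, log axis) of the genes in 12 lists; each point is a gene, red bars are list medians, the gene with 0 reads is drawn at the left edge and the dashed line is the median of detected coding genes (4.94). The chaperone list has the highest median (29.8), and the lists of vitamin D targets (0.0156) and hepatic receptor targets (0.0254) the lowest.

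Promoter CpG content, a feature that the choice of genes did not use, differed with level among the receptors as it did among coding genes at large. A RefSeq window of 250 bases before the start was found for 40 of the 44 genes. Nr3c1, the highest receptor, had none, nor had Thra, Nr5a1 and Hnf4g. Receptors above the median level had a median of 16.5 CpG per window (14 genes), those with at least 10 reads below it 12 (18 genes) and those under 10 reads 4.0 (8 genes). Over all coding genes with a window the medians were 17.5, 13.0 and 2.0 in the same order, so the same order was seen in both. Nr2f6 had the most CpG among the receptors above the median level (42), and Nr1i2 (2), with Nr1i3, the fewest among those under 10 reads. The 2 windows are printed to show this contrast, up to the edge of the RefSeq gene span, at chr8:71381968-71382202 (-), with 39 of the 42 CpG, and chr16:38294850-38295074 (-), 5′ to 3′ on the strand of the gene with each CpG in capitals:
Nr2f6: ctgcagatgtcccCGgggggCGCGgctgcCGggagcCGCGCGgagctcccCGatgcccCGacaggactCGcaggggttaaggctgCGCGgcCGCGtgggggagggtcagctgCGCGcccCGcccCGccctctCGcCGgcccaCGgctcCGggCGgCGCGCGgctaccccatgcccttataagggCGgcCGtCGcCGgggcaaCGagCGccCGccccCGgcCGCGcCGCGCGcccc
Nr1i2: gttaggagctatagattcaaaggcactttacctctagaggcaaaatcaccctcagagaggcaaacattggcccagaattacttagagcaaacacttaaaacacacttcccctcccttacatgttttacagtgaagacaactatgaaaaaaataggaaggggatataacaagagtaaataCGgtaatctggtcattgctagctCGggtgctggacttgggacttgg

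**Figure D5:**
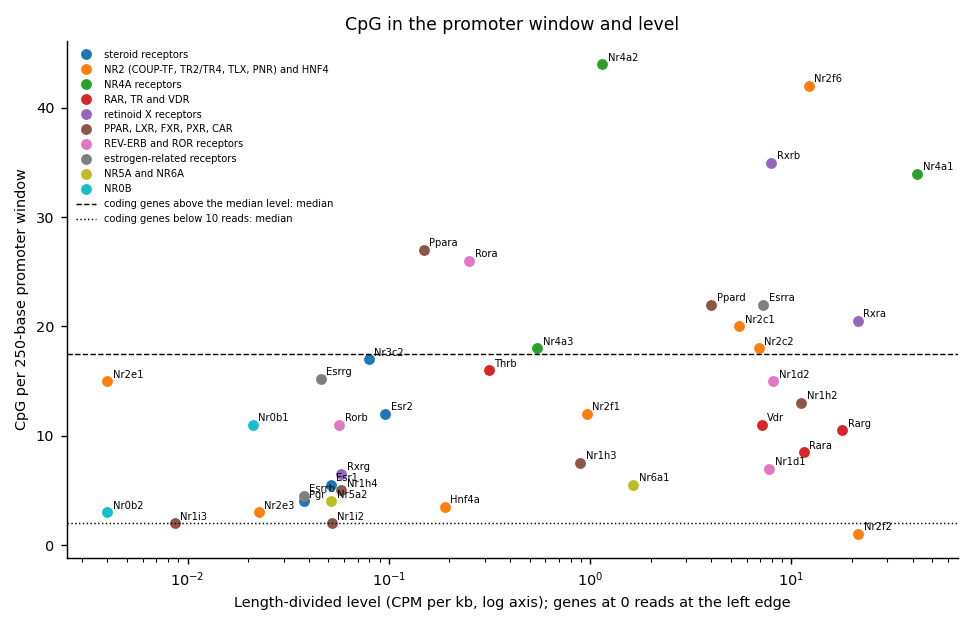
Number of CpG in the promoter window of 250 bases (mean over windows where a gene has several) against length-divided level (CPM per kb, log axis; genes at 0 reads drawn at the left edge) for 40 nuclear receptor genes, coloured by class; lines are medians of coding genes above the median level (17.5) and below 10 reads (2.0). Genes at the left mostly have few CpG, whereas Nr2f2 has 1 CpG at a high level and Nr2e1 has 15 with no read.

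Exceptions occurred on both sides. The window of Nr2f2 had 1 CpG although the gene was the third in level, and it lies wholly within exons of B130024G19Rik on the opposite strand. Nr4a2 had the most CpG of all 40 genes, 44, at 1.15 CPM per kb, below the median level, and Ppara and Rora, with 27 and 26 CpG, had 0.149 and 0.251 CPM per kb. The half-site AGGTCA, the sequence that most of these receptors recognise, occurred on either strand in 15.3% of the 59 windows of receptor genes and in 14.0% of all 32851 windows, so it was about as common before receptor genes as elsewhere.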

How the data were processed

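Per the labels' protocols, total RNA of 1 culture was extracted with TRIzol and sequenced as a SOLiD library. The authors' deposited signal gives 1 value per gene row; the submitters' processing notes name DESeq and mm10 without their roles, and for aligner, counter, strand setting and annotation: not given in the sources used here. Every value above 0 (20976 of 24214 rows) was a whole multiple of 1.18 within 0.006 of a read, so the values were taken as read counts divided by a size factor of 0.850 and the whole reads were recovered, a step tested on simulated data. Rows that differ by a copy suffix were summed. Levels are CPM, or CPM per kb of exonic length, the union of exons in GENCODE M21, known for 99.2% of coding genes (those with an NM accession). Detection meant at least 10 reads. Medians on a log2 scale use a pseudocount of 0.05. Intervals are exact Poisson for levels and exact Clopper-Pearson on the split of reads for ratios. Stretches of 50 bases were compared on both strands over all GENCODE transcripts. With 1 library no test was run. Receptors and lists were chosen with earlier results of these data known. Reads and length-divided levels are given for the first 12 receptors and all paired ones, and in each list the first 3 genes and those under 10 reads are named, except for an item that is not reported here. Computation used scipy 1.17.1, pandas 2.3.3 and numpy 2.4.6 under Python 3.11.15. Gene spans and promoter windows are those of RefSeq on GRCm38.p6, the build of mm10.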

Additional observations from a re-analysis of the deposited data

How the results depend on the processing

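No paired analysis was possible because only 1 library was analysed, which also prevents leaving out a replicate. The number of receptors detected, the number above the median of detected coding genes, the number of unequal pairs, the genes in the first 12 places and the number of list genes above the median stayed within 1.5 times of the values given under the alternatives run for each: detection at 1 or 50 reads, each row on its own, and gene length as the longest transcript, the exons of the listed RefSeq transcripts (a setting chosen after seeing the data) or none. The median log2 level of the 44 receptors, -1.10, became 1.49 without division by length, -0.12 with a pseudocount of 0.5, 0.75 over the genes with at least 10 reads and -0.72 with a total that leaves out the 100 most abundant genes. It stayed below the median of the coding genes treated in the same way, by 0.76 to 2.04 log2 units over all settings. For the receptors with at least 10 reads, that median was 2.32, over the coding genes with at least 10 reads. The steroid receptors' share of the summed level, 18.8%, was 15.8% with the longest transcript, 16.4% with the listed RefSeq transcripts, 25.8% without division by length and 0.362% without the leading gene of each class. The ratio of Esr2 to Esr1 turned to 0.866, 0.597 and 0.459 with the longest transcript, the listed transcripts and no length, and that of Nr5a1 to Nr5a2 to 0.875 with no length; the numbers of reads, 14 to 37, limit both.
Nr4a1 ranked above Nr3c1 with the longest or the listed transcripts. RefSeq starts may not be the starts used in these cells, so promoter windows can hold exonic bases. At this depth a count of 0 allows up to 0.0703 CPM, the upper end of its 95% interval.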

Other observations

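Between Nr6a1 (1.64 CPM per kb) and Ppard (4.0 CPM per kb) no receptor was found, with 17 at or above the upper value and 18 with at least 10 reads at or below the lower. Of the detected coding genes, 2122 (15.3%) lay between these values. This held with merged exons as the length. Without division by length, Thra (22.9 CPM), Nr1d1 (23.9) and Nr2c1 (25.4) lay between Nr6a1 (17.7) and Ppard (30.1). On that scale no receptor lay between 6 and 15 CPM, where 9.49% of coding genes did. All these limits were set after the values had been seen, and no test was run.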
